A study of Mus musculus with 4 samples.

Results

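Tuft cells are rare chemosensory cells of the gut epithelium, and 9 genes by which they are commonly recognised were followed here: Dclk1, Trpm5, Pou2f3, Il25, Alox5ap, Hpgds, Sh2d6, Gfi1b and Ptgs1. The members were the probe sets whose gene symbol in the platform annotation was one of these names. That gave 18 of 45037 probe sets and 8 of 18193 genes. No probe set carried the symbol Ptgs1 in that annotation, so this gene, the cyclooxygenase 1 gene, was not analysed here. Dclk1 had 9 probe sets, Trpm5 had 3 and the other 6 genes had 1 each, so the probe sets are not independent of one another.

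The data came from epithelial cells that were laser-captured from OCT-embedded tissue of C57/Bl6 mice, taken from proximal colon or from ileum. The animals were either wild type mice with a microbiota, which served as controls, or germ-free mice, which live without microbes. The 4 groups were thus each region in each state, and their arrays are called colon wild type or germ-free and ileum wild type or germ-free. Each group had 1 array, hybridised with RNA from about 16000 cells pooled over 4 mice (about 4000 cells from each), with 40 ng of total RNA amplified in 2 rounds. The labels give no age or sex, and they mention hematoxylin staining for the germ-free sections only. Since groups were not replicated, nothing below could be tested, and precision is limited by having only 4 arrays.

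Tuft cells sense luminal compounds through a pathway shared with taste cells, in which G protein-coupled receptors act through a phospholipase and an inositol trisphosphate receptor to open the cation channel TRPM5. They depend on the transcription factor POU2F3. They are the main epithelial source of interleukin 25, which acts on type 2 innate lymphoid cells. They also make eicosanoids, the leukotrienes and prostaglandins, from arachidonic acid. In the small intestine they are known for a circuit in which interleukin 13 from the lymphoid cells drives epithelial progenitors towards more tuft and goblet cells.

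The tuft cell genes were above the floor about as often as other genes. Values are probe set intensities, quantile-normalized between arrays, and a floor was set at their pooled median, an intensity of 62.4. Each gene is given by its brightest probe set unless another is named. In colon 5 of the 8 members were above the floor on the wild type array and 4 on the germ-free array, where 61.9% and 60.6% of all genes were. In ileum it was 4 members on wild type and 6 on germ-free, where 62.1% and 62.0% of all genes were. Trpm5, Dclk1 and Sh2d6 were above it on all 4 arrays, Alox5ap on 3, and Il25 and Hpgds on 2. Pou2f3 and Gfi1b, the transcription factor genes, were below it on every array. The label therefore rests on the channel, kinase and SH2 protein genes, since the levels of the lineage factors could not be measured. All 12 general epithelial markers, such as the adhesion molecule gene Epcam, were above the floor on all arrays.

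**Figure D1:**
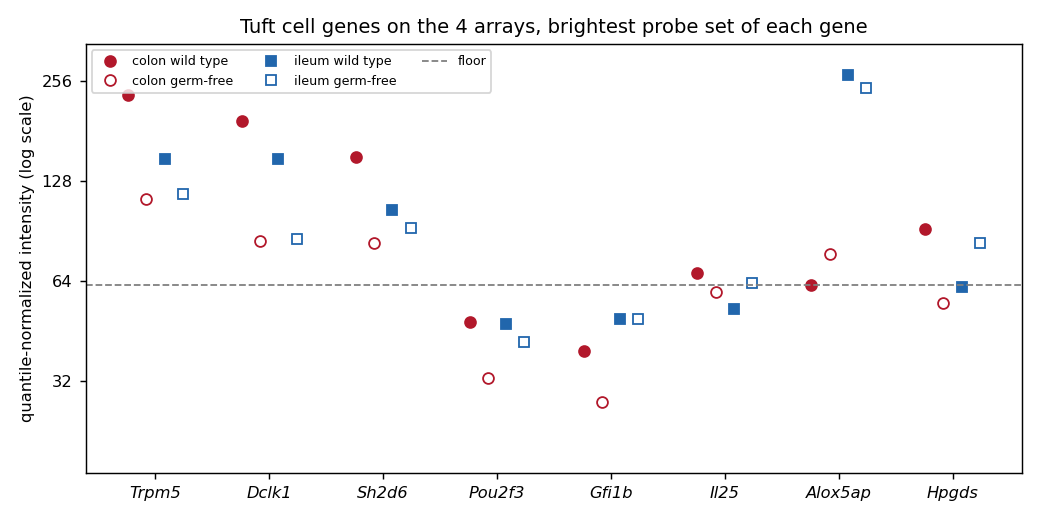
Quantile-normalized intensity (log axis) of the 8 tuft cell genes on the 4 arrays, 1 point per array and gene, with the floor of 62.4 as a dashed line. Trpm5, Dclk1 and Sh2d6 sit highest on the colon wild type array (233, 194 and 151), Alox5ap sits highest in ileum (266 and 244), and Pou2f3 and Gfi1b lie below the floor throughout. The vertical position of one gene cannot be set against that of another, since probe sets differ in brightness.

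In the colon, most tuft cell genes read lower without microbes. Of 6 measured members 5 were lower and 1 was higher, with a median log2 change of -0.71, where the median of all 11746 measured genes was -0.01. A gene counts as measured in a comparison when either of its 2 readings exceeded the floor. Dclk1 and Trpm5 were lower by 2-fold or more, 2 of 6 members, where 3.23% of all measured genes were lower and 1.29% higher by as much. Sh2d6 was lower by 1.82-fold, Hpgds by at least 1.47-fold, Il25 lay at the floor, and Alox5ap alone was higher. Only Dclk1, Trpm5 and Sh2d6 exceeded the floor on both colon arrays. Il25 and Hpgds exceeded it on wild type only and Alox5ap on germ-free only, so the filter fixed their directions. In such captures fewer tuft cells and less RNA per tuft cell cannot be told apart.

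Trpm5 encodes the calcium-activated cation channel at the end of the taste-type pathway. Its brightest probe set (1418783_at) read 233 on colon wild type, 113 on colon germ-free, 149 on ileum wild type and 117 on ileum germ-free. The colon wild type array was the highest of the 4 and the 2 germ-free arrays were the lowest. The log2 change on the germ-free array was -1.04 in colon (2.06-fold lower) and -0.34 in ileum. The next probe set (1443413_s_at) read 131 and 52.8 in colon, at least 2.10-fold lower. In ileum that probe set went the other way, at 14.1 on wild type and 83.2 on germ-free. Since 14.1 lies below the floor, that ileal change is a bound, at least 1.33-fold higher on germ-free. The third Trpm5 probe set stayed below the floor, between 33.8 and 48.5.

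Dclk1 encodes doublecortin-like kinase 1, a microtubule-associated kinase that is also made by neurons. Its brightest probe set (1450863_a_at) read 194 on colon wild type, 84.2 on colon germ-free, 148 on ileum wild type and 85.8 on ileum germ-free. Both wild type arrays were higher than both germ-free arrays on this probe set. The log2 change was -1.20 in colon (2.30-fold lower) and -0.79 in ileum (1.73-fold lower). Of the 9 Dclk1 probe sets, 5 were measured in colon, and all 5 were lower on the germ-free array, by log2 changes between -1.20 and -0.56 with a median of -0.81. Among these 5, 2 were past 2-fold. One of them, 1435940_at, exceeded the floor on colon wild type only, so it could only read lower, and its -0.56 is a bound. In ileum 3 were measured, with changes of -0.79, -0.03 and 0.17. The lower ileal value of Dclk1 thus rests on the brightest probe set, and the next brightest (1423125_at) was higher on the germ-free ileum array, at 129 against 114. Of the markers of enteric neurons and glia, which could also carry Dclk1, 6 of 12 with a probe set were below the floor on all arrays, among them Elavl4 and Uchl1. Elavl3 and Nefl were above it on all 4, Sox10 on 3, Prph and Snap25 on 2 and Gfap on 1. In colon 4 of 6 measured markers read lower on germ-free, with a median log2 change of -0.11, and in ileum 3 of 4, with -0.31. The summed intensity of the 12, those below the floor included, was 623 on colon wild type and 584 on colon germ-free. The part of these cells in the Dclk1 readings was not tested.

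**Figure D2:**
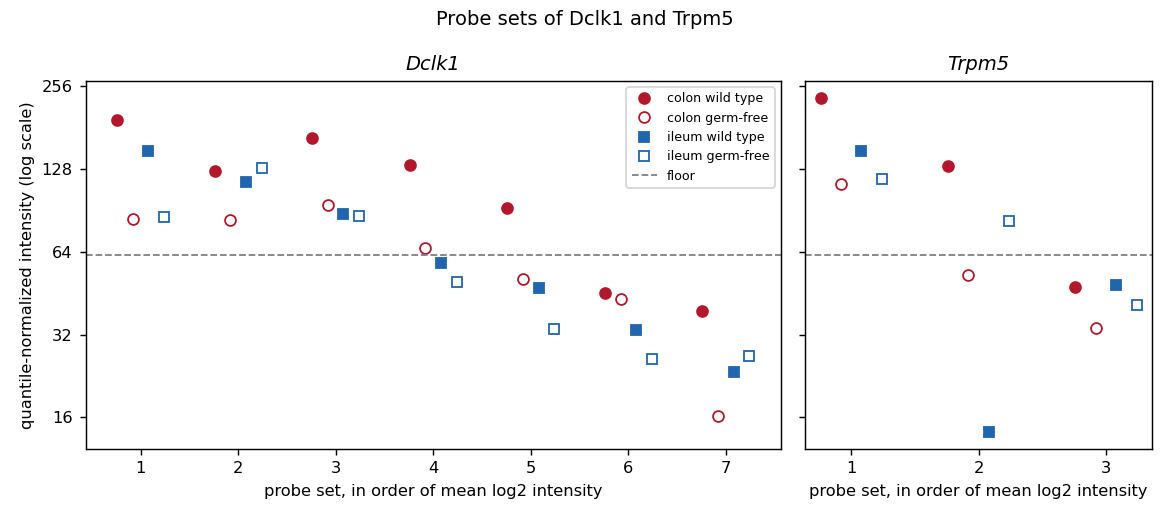
Quantile-normalized intensity (log axis) of the probe sets of Dclk1 and Trpm5 on the 4 arrays, in order of mean log2 intensity, with the floor as a dashed line; 2 Dclk1 probe sets below an intensity of 10 on all arrays are left out. The filled circles of colon wild type lie above the open circles of colon germ-free for every probe set that passes the floor in colon, while the ileal squares fall in either order. Dclk1 1435940_at and Trpm5 1443413_s_at pass it in colon on wild type only, so their order there is fixed.

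Sh2d6 encodes a protein with an SH2 domain, which binds phosphotyrosine. It read 151 on colon wild type, 83.1 on colon germ-free, 105 on ileum wild type and 92.6 on ileum germ-free. The order of the arrays was the same as for Trpm5 and Dclk1, with colon wild type highest and colon germ-free lowest. The log2 change on the germ-free array was -0.86 in colon (1.82-fold lower) and -0.18 in ileum. Disagreement among a gene's own probe sets gives a scale for these changes: among 959 genes whose brightest 2 probe sets both lay between the floor and the pooled 75th percentile, the SD between them was 0.45 log2 for the colon comparison and 0.31 for ileum (943 genes). The colon changes of Trpm5, Dclk1 and Sh2d6 were larger than that SD. In ileum the change of Dclk1 was larger than it, that of Trpm5 was close to it and that of Sh2d6 was smaller. The SD between probe sets does not measure variation among mice.

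The transcription factor genes gave no measured change. Pou2f3, the factor that tuft cells require, read 48.4 on colon wild type, 32.8 on colon germ-free, 47.4 on ileum wild type and 42.1 on ileum germ-free. Gfi1b, a repressor used in tuft and blood cell lineages, read 39.5, 27.8, 49.3 and 49.1 in the same order. Values below the floor have no order here and no fold is given. Of the megakaryocyte and erythroid markers, which share Gfi1b, 6 of 11 with a probe set were below the floor on all arrays, among them Gata1, Itga2b and Ppbp. The others were above it, Gp1bb, Klf1 and Tal1 on all 4 arrays, Pf4 on 3 and Treml1 on 1. Gp1bb was the brightest, at 150 on colon wild type, 439 on colon germ-free, 1403 on ileum wild type and 1244 on ileum germ-free.

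Il25, the alarmin cytokine of tuft cells, was at the floor. It read 67.7 on colon wild type, 59.3 on colon germ-free, 52.7 on ileum wild type and 63.1 on ileum germ-free. Only the first and the last lay above 62.4, and the log2 changes were -0.12 in colon and 0.01 in ileum. No difference in Il25 was measurable on these arrays.

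The eicosanoid genes differed from the channel and kinase genes and from each other. Alox5ap encodes FLAP, the protein that presents arachidonic acid to 5-lipoxygenase for leukotriene synthesis. It read 62.2 on colon wild type, 77.4 on colon germ-free, 266 on ileum wild type and 244 on ileum germ-free. Both ileal arrays were far above both colonic arrays, while germ-free and wild type were close within each region (log2 changes of 0.31 in colon and -0.13 in ileum). Hpgds, the hematopoietic prostaglandin D2 synthase, read 91.8 on colon wild type, 55.1 on colon germ-free, 61.6 on ileum wild type and 83.6 on ileum germ-free. Without microbes it read lower in colon, by 1.47-fold or more, and higher in ileum, by 1.34-fold or more, so the regions went opposite ways on readings near the floor. Hpgds exceeded the floor on colon wild type and ileum germ-free only, so the filter fixed both directions.

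To show the start regions of the members that were highest on the colon wild type array, the 300 bases from 250 before to 50 after each annotated start are printed for Trpm5, Dclk1, Sh2d6 and Hpgds. The sequences are those of RefSeq on GRCm38.p6, 5′ to 3′ along the gene's strand, and Dclk1 has 2 annotated starts. Of the 8 genes with a probe set, 5 had an entry (these 4 and Gfi1b). Capitals mark matches to 3 motifs, searched on both strands: the octamer of POU factors (ATGCAAAT), a GFI site (TAAATCAC) and the PU box of PU.1 and SPIB (GAGGAA). They were picked with the sequences in view, and no 2 matches overlap.
Trpm5 (chr7:143094593-143094892, minus strand): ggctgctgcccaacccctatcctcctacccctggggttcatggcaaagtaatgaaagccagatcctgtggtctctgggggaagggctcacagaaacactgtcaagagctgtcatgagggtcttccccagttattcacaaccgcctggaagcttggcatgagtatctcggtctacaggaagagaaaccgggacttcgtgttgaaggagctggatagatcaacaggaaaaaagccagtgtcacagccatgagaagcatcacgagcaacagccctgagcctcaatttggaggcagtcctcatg
Dclk1, first start (chr3:55242114-55242413, plus strand): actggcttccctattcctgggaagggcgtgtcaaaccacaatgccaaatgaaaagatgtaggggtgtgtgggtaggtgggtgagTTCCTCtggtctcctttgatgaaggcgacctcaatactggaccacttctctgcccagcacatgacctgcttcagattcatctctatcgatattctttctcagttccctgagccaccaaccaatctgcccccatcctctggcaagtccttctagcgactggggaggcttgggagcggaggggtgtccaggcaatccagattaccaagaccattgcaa
Dclk1, second start (chr3:55461478-55461777, plus strand): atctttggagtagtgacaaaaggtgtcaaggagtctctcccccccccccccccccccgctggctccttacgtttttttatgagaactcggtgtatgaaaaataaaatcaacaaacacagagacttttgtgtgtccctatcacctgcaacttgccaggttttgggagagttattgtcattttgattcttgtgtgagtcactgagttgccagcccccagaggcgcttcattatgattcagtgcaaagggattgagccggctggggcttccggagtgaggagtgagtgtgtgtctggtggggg
Sh2d6 (chr6:72519987-72520286, minus strand): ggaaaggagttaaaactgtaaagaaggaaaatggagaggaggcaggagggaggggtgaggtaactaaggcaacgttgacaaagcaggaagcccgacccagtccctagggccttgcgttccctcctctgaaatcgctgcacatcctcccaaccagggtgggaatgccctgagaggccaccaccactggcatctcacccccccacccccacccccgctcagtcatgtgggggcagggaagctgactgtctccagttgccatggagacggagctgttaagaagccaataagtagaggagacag
Hpgds (chr6:65144681-65144980, minus strand): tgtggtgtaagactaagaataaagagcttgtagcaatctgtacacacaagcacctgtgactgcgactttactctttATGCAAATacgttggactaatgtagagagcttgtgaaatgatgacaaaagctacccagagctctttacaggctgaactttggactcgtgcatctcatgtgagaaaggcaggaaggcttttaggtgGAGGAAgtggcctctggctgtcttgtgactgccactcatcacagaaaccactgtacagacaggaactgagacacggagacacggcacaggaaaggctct
The octamer occurred once, in the Hpgds window, where it began at base 77, and 1.74% of all 32851 promoters in the table held it. The PU box occurred in the Hpgds window, beginning at base 202, and, on the other strand, in that of the first Dclk1 start, at base 85, and 28.3% of all promoters held it. No GFI site occurred in these windows, against 0.578% of all promoters. These matches describe the letters and no binding was measured.

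In the ileum, the tuft cell genes lay close to the other genes. Of 6 measured members 4 were lower and 2 higher on the germ-free array, with a median log2 change of -0.15, where the median of all 11750 measured genes was 0.03. The 2 higher ones, Il25 and Hpgds, exceeded the floor on ileum germ-free only, so they could only be higher. None was past 2-fold in either direction, where 0.928% of all measured genes were. Dclk1 had the largest change (-0.79), followed by Hpgds (0.42, a bound) and Trpm5 (-0.34). Whether the germ-free change of these genes differs between colon and ileum was not tested, as there is 1 array per group.

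Between the regions, Alox5ap was the member that differed most. It was at least 4.27-fold higher in ileum than in colon on the wild type arrays and 3.15-fold higher on the germ-free arrays. It was the only member past 2-fold in either comparison, 1 of 6, where 12% of all measured genes were past 2-fold on the wild type arrays and 13.2% on the germ-free arrays. That share of members is therefore near the background. On the wild type arrays the other 5 measured members were lower in ileum, and the median over the 6 was a log2 difference of -0.46 against -0.01 for all genes. Il25 and Hpgds exceeded the floor on colon wild type only, and Alox5ap on ileum wild type only, so the filter fixed their directions. Trpm5 differed by -0.64, Sh2d6 by -0.53 and Dclk1 by -0.39. On the germ-free arrays these 3 genes were close between the regions, with differences of 0.06, 0.16 and 0.03, and the differences of Trpm5 and Dclk1 turned negative under other scalings, at lowest -0.15 and -0.10. The regional and the germ-free comparisons share arrays, so the high colon wild type readings of Trpm5, Dclk1 and Sh2d6 enter both.

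Of the 18 probe sets of the members, 11 were above the floor on at least 1 array. Of these, 9 were brightest on the colon wild type array, 0 on colon germ-free, 1 on ileum wild type and 1 on ileum germ-free. Of all 25831 probe sets above the floor somewhere, 24.3% were brightest on colon wild type. Dclk1 contributed 4 of the 9 and Trpm5 contributed 2, and the remaining ones were the single probe sets of Il25, Hpgds and Sh2d6. The Dclk1 probe set 1435940_at was above the floor on colon wild type alone, so it could only be brightest there.

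Other genes of the taste-type pathway went in part the same way. Of 8 measured genes 7 read lower in colon without microbes, with a median log2 change of -0.31, and 1 was past 2-fold. Of all measured genes 51.3% read lower and 3.23% were lower by 2-fold or more. Plcb2 and Tas1r3 exceeded the floor on colon wild type only and Sucnr1 on colon germ-free only, so the filter fixed their directions. The median of this list was -0.13 as deposited and -0.29 under median scaling, with 0 past 2-fold in either. The gene past 2-fold was Rgs13, a regulator of G protein signalling that marks tuft cells and also germinal centre B cells, at 487 against 1051 (2.16-fold lower). The sweet and umami receptor subunit gene Tas1r3 read 119 on wild type and 61.0 on germ-free, at least 1.90-fold lower. The phospholipase gene Plcg2 read 230 and 136. Plcb2, the phospholipase of the canonical taste pathway, read 82.1 and 8.33, and since the floor lies between them its log2 change is bounded at -0.39. Itpr3, its inositol trisphosphate receptor, differed little (722 and 618). Gnb3, Tas1r1 and Tas1r2 were below the floor on all arrays. In ileum 4 of 9 were lower and 0 were past 2-fold, with a median of 0.13. Gng13 exceeded the floor on ileum germ-free only, so it could only be higher. Sucnr1, the receptor for succinate, by which small intestinal tuft cells sense microbial succinate, read 32.3 on colon wild type, 72.4 on colon germ-free, 149 on ileum wild type and 141 on ileum germ-free. Its ileal readings were thus the higher ones in either state, as for Alox5ap.

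A wider list of tuft cell markers went the same way in colon. Of 29 measured markers 24 were lower and 5 higher, with a median log2 change of -0.50, so that 82.8% were lower, where 51.3% of all measured genes were. Past 2-fold were 3 of the lower ones and 1 of the higher ones, where 3.23% and 1.29% of all measured genes were. Rac2, Pik3r5, Gprc5c and Nebl exceeded the floor on colon wild type only, so they could only read lower. Cd300lf, an immunoglobulin-like receptor of tuft and myeloid cells, read 283 on wild type and 99.1 on germ-free (2.85-fold lower). Rac2, a small GTPase of blood and tuft cells, read 147 and 55.5 (at least 2.35-fold lower). Siglecf, a sialic acid-binding lectin of tuft cells and eosinophils, read 302 and 140 (2.16-fold lower). Sox9, a crypt progenitor factor that tuft cells also express, was the higher one, at 136 against 67.7 (2.01-fold). Further markers with lower readings on germ-free were Spib (237 against 444), Inpp5j (339 against 629), Lrmp (76.3 against 139) and Pik3r5 (58.5, below the floor, against 124). The actin-binding genes Vil1 and Espn, which enterocytes share, were higher, at 6767 against 5814 and 572 against 448. Avil, encoding advillin, an actin-binding protein of the tuft, read 167 on wild type and 139 on germ-free. In ileum 22 of the 29 measured markers were lower (75.9%, where 45.1% of all measured genes were), with a median of -0.08 against 0.03 for all genes, and 0 were past 2-fold. Chat, Pik3cg and Sox9 exceeded the floor on ileum wild type only, so they could only read lower there.

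**Figure D3:**
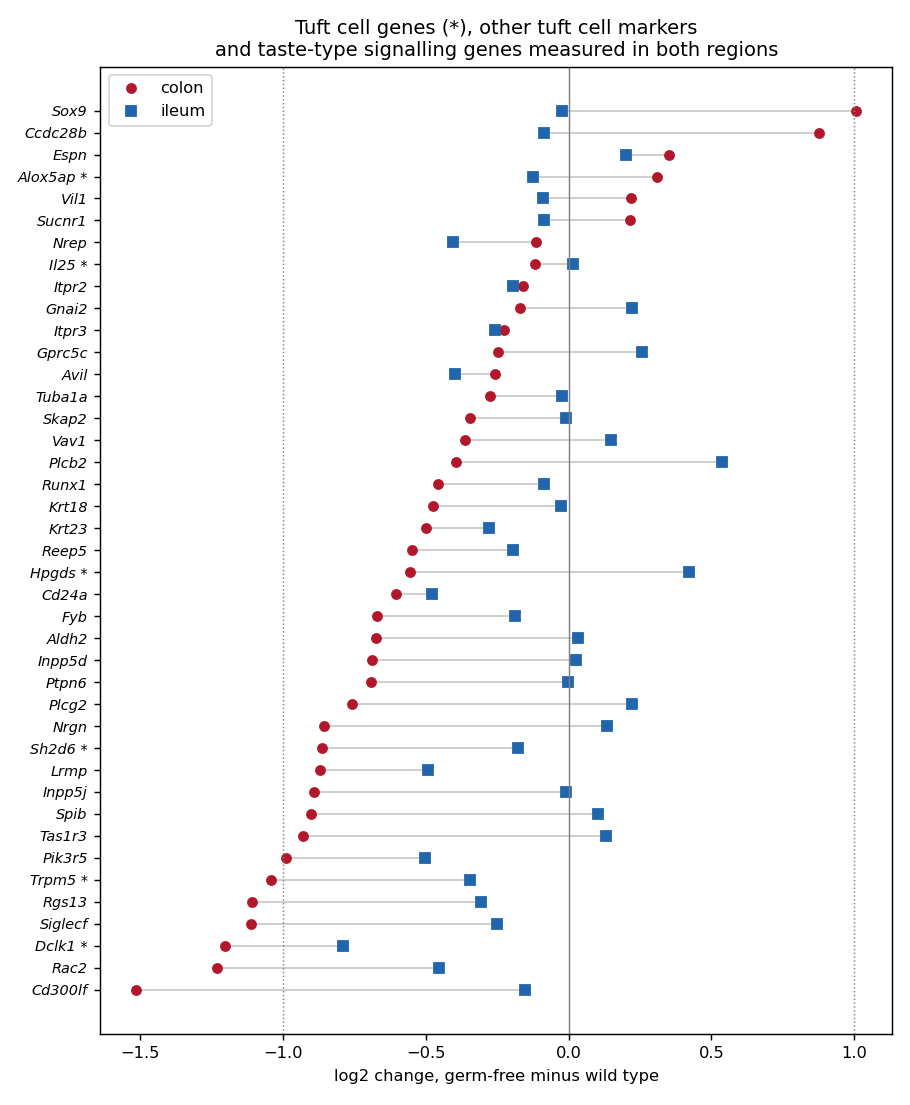
Log2 change, germ-free minus wild type, of the 41 tuft cell genes (asterisks), other tuft cell markers and taste-type signalling genes measured in both regions, as circles for colon and squares for ileum; dotted lines mark 2-fold. In colon 35 of the 41 lie left of zero and in ileum 28, and the ileal squares stay within 2-fold. A gene above the floor on wild type alone or germ-free alone in a region has its side of zero fixed there.

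Of the other genes of eicosanoid synthesis 6 of 8 measured read lower in colon without microbes, with a median log2 change of -0.41 and 0 past 2-fold. That median was -0.01 in the values as deposited and -0.28 with median scaling. Alox5, the 5-lipoxygenase that Alox5ap serves, read 231 on wild type and 127 on germ-free. The secreted phospholipase gene Pla2g10 read 2322 and 1388, the thromboxane synthase gene Tbxas1 123 and 75.1, and Ptgs2, the inducible cyclooxygenase gene, 96.6 and 57.4. Hpgd, which degrades prostaglandins, was close on the 2 arrays (11020 and 12248). In ileum 3 of 9 were lower, with a median of 0.05, and Ptgs2 was the largest difference, at 46.5 on wild type and 115 on germ-free. Ptgs2 exceeded the floor on colon wild type and ileum germ-free only, so the filter fixed both of its directions. Of the eicosanoid receptors 2 of 5 measured read lower in colon without microbes, and the prostaglandin E2 receptor gene Ptger3 was 3.12-fold higher (343 against 110). The other 4 measured receptors, Ltb4r1, Tbxa2r, Ptgdr and Ptger4, had log2 changes of 0.20, -0.17, -0.0028 and 0.0012.

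Genes of the type 2 cytokine circuit were mostly level or below the floor. Of 18 genes with a probe set, 9 were below the floor on all arrays, among them the cytokines Il4, Il5, Il9, Il13 and Tslp and the goblet cell product Retnlb. In colon 5 of 8 measured genes were lower on germ-free, with a median of -0.11 and 0 past 2-fold. Il4ra, the receptor chain for interleukins 4 and 13, read 306 on wild type and 179 on germ-free. Il17rb, a chain of the interleukin 25 receptor, read 105 and 75.5. Il13ra1, a chain of the interleukin 13 receptor, had a log2 change of -0.40, and Stat6, which carries the signal of these receptors, one of 0.26. In ileum the same receptors read 397 and 389 for Il4ra and 130 and 134 for Il17rb, and the list median was -0.03.

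Other secretory lineages of the epithelium had smaller medians on the germ-free colon array. The median was -0.15 over 11 goblet cell markers, -0.09 over 15 enteroendocrine markers and 0.07 over 10 secretory lineage factors, each with 0 genes past 2-fold. Lower were 9 of 11 goblet cell markers (81.8%), 9 of 15 enteroendocrine markers and 4 of 10 lineage factors, where 51.3% of all measured genes were. In ileum the goblet cell median was -0.21, with 8 of 11 lower, beside a median of -0.15 for the tuft cell genes. Atoh1, the factor that directs progenitors to secretory fates, read 1785 on wild type and 1954 on germ-free. The largest log2 changes among the lineage factors were -0.63 for the Notch ligand gene Dll4, 0.42 for Foxa3, -0.35 for Dll1 and -0.33 for Neurod1. Those of the goblet cell list were -0.50 for Galnt12, -0.45 for Agr2, -0.36 for Spink4 and -0.36 for Ccl6, and those of the enteroendocrine list were -0.49 for neurotensin (Nts), 0.45 for somatostatin (Sst, a bound), -0.45 for secretin (Sct) and 0.44 for Gcg. The general epithelial markers had a median of 0.12. These differences between lists were not tested.

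Several tuft cell genes are also made by leukocytes, and markers of other cell types moved in the same direction in colon. On the germ-free array the median log2 change was -1.52 over 4 plasma and B cell markers, -0.76 over 4 T and intraepithelial lymphocyte markers, -0.73 over 5 endothelial markers, -0.46 over 8 fibroblast and smooth muscle markers and -0.34 over 9 myeloid markers. The summed intensity went from 1036 on colon wild type to 583 on colon germ-free for the lymphocyte list, from 890 to 422 for the endothelial list, from 2665 to 2393 for the myeloid list, from 11344 to 7416 for the plasma and B cell list and from 5020.0 to 4099 for the fibroblast list. For the 8 tuft cell genes it went from 887 to 533. All sums in this paragraph include readings below the floor. On colon wild type and germ-free 5 and 4 of the 8 tuft cell genes were above it, and 5 and 2 of 9 endothelial markers. Under the deposited and the median scaling the fibroblast median was -0.26 and -0.23. Of the lymphocyte markers with a probe set, 6 of 10 were below the floor on all arrays, Cd3e, Cd3g and Cd3d among them, and the 4 measured ones all read lower in colon without microbes (3 of 4 under the other scalings). Among these Cd8a went from 374 to 129 (2.91-fold lower), Gzma, a granzyme of cytotoxic lymphocytes, from 153 to 48.3 (at least 2.46-fold lower), and Gzmb and Itgae had log2 changes of -0.23 (a bound) and -0.20. Gzma and Gzmb exceeded the floor on colon wild type only, so they could only read lower. Of the myeloid markers 4 of 14 were below the floor on all arrays (Cd68, Itgax, C1qa and Aif1). Adgre1, the macrophage marker F4/80, went from 472 to 221 in colon (2.14-fold lower), Lyz2 and C1qb had log2 changes of -0.57 and -0.53, and Cd14 was the other way, at 0.98. Of the plasma and B cell markers 3 of 9 were below the floor on all arrays, and the immunoglobulin A genes Igha and Jchain had log2 changes of -3.20 and -2.98, beside 0.41 for Sdc1 and -0.07 for Mzb1. Sdc1 read 4852 on colon wild type and 6464 on colon germ-free, a large part of the sums of this list. Igha went from 4609 to 501 and Jchain from 1549 to 197. In ileum Sdc1 read 5003 on wild type and 5252 on germ-free. The largest endothelial changes were -1.49 for Kdr, -0.86 for Emcn (a bound), -0.73 for Tek and -0.56 for Eng (a bound), and those of the fibroblast and muscle list were -1.81 for Tpm2, -0.61 for Pdgfra, -0.53 for Col1a2 and -0.51 for Col3a1. Mast cells make Alox5ap and Hpgds, and 7 of 11 mast cell markers with a probe set, among them Mcpt1, Mcpt2 and Fcer1a, were below the floor on all arrays. Kit and Ms4a2 were above it on all 4, Cpa3 on 3 and Tpsab1 on 1. The summed intensity of the 11 was 539 on colon wild type and 521 on colon germ-free, of which Kit gave 280 and 267. In ileum most of these lists also read lower without microbes, beside a median of -0.15 for the tuft cell genes. The median log2 change was -0.70 over 12 fibroblast and smooth muscle markers (5 lower by 2-fold or more), -0.69 over 4 lymphocyte markers (2 lower by 2-fold or more, 1 under the other scalings), -0.50 over 6 plasma and B cell markers, -0.36 over 10 myeloid markers and -0.14 over 5 endothelial markers. Of all measured genes in ileum 0.698% were lower by 2-fold or more. Among the genes so called, Dcn, Tagln, Des and Gzmb exceeded the floor on ileum wild type only, so they could only read lower. The summed intensity went from 7798 on ileum wild type to 4560 on ileum germ-free for the fibroblast list, from 17486 to 8004 for the plasma and B cell list, from 4216 to 3435 for the myeloid list, from 1561 to 1067 for the lymphocyte list and from 639 to 621 for the endothelial list. For the tuft cell genes it went from 879 to 778. Lyz2 went from 1791 to 888 in ileum, beside 101 on colon wild type, and the fall of the ileal myeloid sum rests on it. Csf1r and Adgre1 were higher on ileum germ-free (1325 against 1038 and 325 against 244), while 8 of 10 measured myeloid markers read lower there. The part of these cells in the tuft cell readings was not tested.

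**Figure D4:**
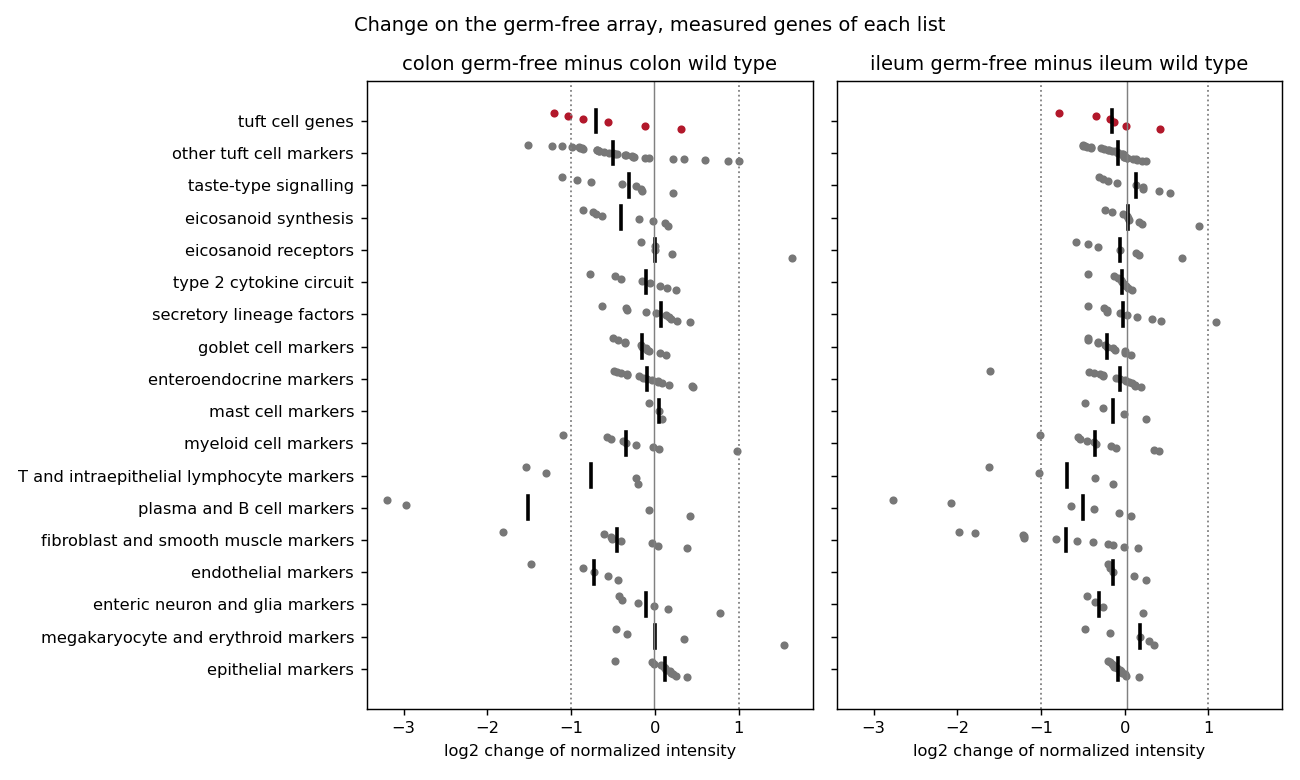
Log2 change of normalized intensity on the germ-free array in colon (left) and ileum (right), 1 point per measured gene of each list, with the list median as a black bar, the median of all genes as a grey line and 2-fold as dotted lines. The tuft cell genes (top row) have a median of -0.71 in colon and -0.15 in ileum; plasma and B cell, lymphocyte and endothelial markers also have low medians in colon, and fibroblast and lymphocyte markers in ileum (-0.70 and -0.69).

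Measures of RNA quality differed between the states as well. In the values as deposited the probe sets of 18S ribosomal RNA were lower without microbes, by a median of -1.23 log2 for colon and -0.93 for ileum. The log2 ratio of 5' to 3' signal of Gapdh, a control for RNA integrity, differed by -0.48 between the colon arrays and by -1.10 between those of ileum. The same ratio of Actb differed by -0.12 and -1.20, and that of Pcx by -0.43 and -0.28. RNA quality and the germ-free state cannot be told apart here. The balance of calls in colon depended on the scaling between arrays: genes past 2-fold in the higher and lower direction numbered 152 and 379 here, 296 and 275 in the values as deposited, and 312 and 242 with median scaling. The median of all genes was -0.01, 0.09 and 0.12 respectively. Under both alternatives Dclk1 stayed past 2-fold (-1.11 and -1.09) and Trpm5 did not (-0.90 and -0.87). The median of the tuft cell genes in colon was -0.69 and -0.65, and that of the wider marker list -0.40 and -0.46. Rgs13 was then within 2-fold. Wider markers lower by 2-fold or more numbered 3 as deposited and 2 with median scaling, and those higher by as much numbered 2 under each. Between the germ-free arrays the counts higher and lower in ileum were 883 and 705 here, 627 and 1001 as deposited, and 686 and 931 with median scaling.

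The genes whose pattern over the 4 arrays was most like that of a member were found by the distance between log2 profiles, each centred on its mean, among 9962 other genes above the floor on all arrays. For Trpm5 these were Tmem81 (distance 0.04), Dpp7 (0.06) and Repin1 (0.09). For Sh2d6 they were Fgd1 (0.05), 1110051M20Rik (0.05) and Ppm1m (0.07), and for Dclk1 they were 2610311E24Rik (0.17), Bsg (0.18) and Sparc (0.20). Trpm5 and Sh2d6 were 0.21 apart, with 17 genes nearer to Trpm5, and Trpm5 and Dclk1 were 0.35 apart, with 100 genes nearer to Trpm5. Sh2d6 and Dclk1 were the farthest apart of the 3 pairs, at 0.50, with 1020 genes nearer to Sh2d6. With 4 points a profile is easily matched, and nothing about shared function or control follows from it.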

How the data were processed

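Expression was measured on 4 Affymetrix mouse arrays, 1 per group. The authors' deposited values are linear intensities per probe set from dCHIP2004, as the series' design text states. Which options were used is not stated there. Of 45101 probe sets 64 controls were set aside, and 34945 of the rest had 1 gene symbol in the platform annotation (932 had several, 9160 had none). Symbols were updated through Entrez identifiers in a RefSeq table of GRCm38.p6, which altered 0.

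Intensities were quantile-normalized on the log2 scale (Python 3.11.15, numpy 2.4.6, pandas 2.3.3). Values below the pooled median (62.4) were set to it, so a change against a floored value is a bound. The filter fixes the direction of such a change, and the counts of lower and higher genes in every list include such genes. For a gene with several probe sets, the one with the highest mean log2 intensity was taken. Changes are differences of log2 values and a change of at least 2-fold was called. No p-value was computed. The steps were tested on simulated data.

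The members and gene lists were chosen with earlier results of these data known. All members were named. Of other lists, the rule named the 4 measured genes of the largest change and genes whose value was the point. It was applied to the colon comparison, while for ileum, and for the neuron, mast cell, megakaryocyte and epithelial lists, mainly counts, medians or sums are given. For each comparison 7 alternatives of normalization, floor and probe set choice were run.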

Additional observations from a re-analysis of the deposited data

Results flagged for a closer look

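Hpgds, the prostaglandin D2 synthase gene, went opposite ways in the 2 regions. Its log2 change on the germ-free array was -0.56 in colon and 0.42 in ileum, where the SD between dim probe sets of a gene was 0.45 and 0.31. Hpgds exceeded the floor on colon wild type only and on ileum germ-free only, so the filter fixed both directions. Both values are bounds from readings between 55.1 and 91.8, on a single probe set, and the difference between the regions was not tested.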

How the results depend on the processing

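The median change of the tuft cell genes in colon lay between -0.69 and -0.56 under the alternatives that could give it, against -0.71. The ileal median lay between -0.20 and 0.01, against -0.15. With a floor at the pooled 75th percentile no member was measured in colon. The count of members past 2-fold in colon was 2, and it was 1 in the values as deposited, with median scaling and without the probe sets whose suffix marks matches to more than 1 transcript, and 0 when probe sets were averaged per gene and with the 75th percentile floor. Without the suffixed probe sets Dclk1 was represented by another, with a log2 change of -0.60 in colon, 0.17 in ileum and 0.63 between the germ-free arrays. With the 75th percentile floor Alox5ap alone was measured between the wild type arrays, so the median was 0.043 in place of -0.46, and the count past 2-fold was 0 there and between the germ-free arrays. With averaged probe sets Dclk1 was not measured and Trpm5 was 0.24 in ileum. Low signal is a limit, since every member but Alox5ap was below an intensity of 259, the 75th percentile, on all arrays. No paired analysis was possible because each group has 1 array.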
